A study of Homo sapiens with 4 samples.

Results

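Mucin genes were examined for the positions at which DNA methylation was called different between SKOV3 cell clones with a mesenchymal (M) or an epithelial (E) phenotype. The 10 genes were the cell-surface mucins MUC1, MUC4, MUC13, MUC16 (whose shed product is the serum marker CA125), MUC17 and MUC20, and the gel-forming mucins MUC2, MUC5AC, MUC5B and MUC6. They were chosen by name, and each was taken with its annotated span and 5 kb on either side, on the hg19 (GRCh37) build. Of the 72455 distinct 1000 bp tiles that the 3 deposited tables listed as differentially methylated, 75 lay in these windows.

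Mucins are large glycoproteins whose central domains of repeated, serine- and threonine-rich sequence carry dense O-linked sugars. The gel-forming mucins are secreted and polymerise into mucus. The cell-surface mucins span the membrane or are shed from it and form a barrier and a signalling surface on epithelial cells. In the ovary, MUC16 is best known because CA125 is followed in the serum of patients with epithelial ovarian cancer.

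All 4 clones were derived from SKOV3, a long-established cell line of human ovarian cancer. ShC-S carried a control shRNA and Ly75-OV-S carried LY75 overexpressed on top of the LY75 shRNA; both were the M clones. ShLy75-S carried the shRNA against LY75, an endocytic antigen receptor, and Ly75-KO-S had LY75 suppressed by CRISPR; both were the E clones. Each clone gave 1 library by reduced representation bisulfite sequencing (RRBS), in which the enzyme MspI cuts the genome at CCGG before bisulfite conversion, so there is no replicate error for any clone. The tables compared ShC-S with ShLy75-S, Ly75-KO-S with Ly75-OV-S, and the mix of both M clones with both E clones. The first 2 comparisons share no library, although Ly75-OV-S was made from LY75 shRNA cells, and the mix holds all 4 libraries again. The LY75 window itself held 3, 1 and 3 listed tiles in these comparisons, which is no check of the clones, since LY75 was changed by RNA interference, editing or overexpression.

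The tables gave called tiles alone, with no methylation level, read count or coverage per library, so the depth behind each tile is unknown. A tile that was not listed may have lacked reads in a library or may have differed by less than the threshold of 25 percentage points. To give the counts a denominator, GRCh37 was digested in silico with MspI, and a tile was called reachable where a 50-base read from an end of a 40 to 220 bp fragment covered at least 1 of its CpGs. This held for 371631 tiles of the genome and for 233 of the 607 tiles of the mucin windows. Of the tiles listed in the 3 tables, 91.1%, 87.6% and 92.1% were reachable. Because neighbouring tiles and tiles of 1 gene share the same libraries, all counts below are descriptions without a test.

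The 250 bases before the reference transcription start are shown for MUC2 and MUC4, whose start lies in a listed tile, for MUC1, whose start tile was reachable but not listed, and for MUC16, whose start tile held no CpG that a modelled read reached. They are written 5′ to 3′ in the direction of the gene, on GRCh37, with every CpG in capitals.
MUC2, 250 bases upstream, chr11:1074625-1074874, plus strand: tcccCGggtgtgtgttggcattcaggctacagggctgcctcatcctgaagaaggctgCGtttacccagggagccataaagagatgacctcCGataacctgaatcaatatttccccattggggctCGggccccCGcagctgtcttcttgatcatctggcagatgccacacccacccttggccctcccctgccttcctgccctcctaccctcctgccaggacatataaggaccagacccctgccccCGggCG
MUC4, 250 bases upstream, chr3:195538801-195539050, minus strand: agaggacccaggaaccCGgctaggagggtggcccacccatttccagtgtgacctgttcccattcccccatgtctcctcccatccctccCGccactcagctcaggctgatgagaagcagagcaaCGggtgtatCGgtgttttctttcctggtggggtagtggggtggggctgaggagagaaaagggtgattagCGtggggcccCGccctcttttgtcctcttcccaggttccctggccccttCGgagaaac
MUC1, 250 bases upstream, chr1:155162707-155162956, minus strand: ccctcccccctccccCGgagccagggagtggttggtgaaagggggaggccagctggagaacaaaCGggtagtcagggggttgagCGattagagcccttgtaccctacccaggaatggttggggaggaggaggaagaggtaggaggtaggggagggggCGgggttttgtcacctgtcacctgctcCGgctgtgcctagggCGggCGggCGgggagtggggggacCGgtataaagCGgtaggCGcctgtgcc
MUC16, 250 bases upstream, chr19:9092019-9092268, minus strand: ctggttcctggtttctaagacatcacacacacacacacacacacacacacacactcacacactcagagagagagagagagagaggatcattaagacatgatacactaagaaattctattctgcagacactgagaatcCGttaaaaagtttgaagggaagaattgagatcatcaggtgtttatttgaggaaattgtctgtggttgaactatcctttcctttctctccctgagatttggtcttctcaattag

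The MUC1 stretch held 11 CpGs, MUC2 and MUC4 each held 7, and MUC16 held 1. The median over the same stretch of 20132 protein-coding genes was 18 CpGs. At least as many CpGs as in MUC1 were found in 68.0% of those genes, and as many as in MUC16 in 97.0%. CCGG, which reads the same on both strands and contains a CpG itself, occurred 3 times before MUC1, 2 times before MUC2, 1 time before MUC4 and 0 times before MUC16. It was present in 72.3% of the 20132 stretches.

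The second set shows MspI fragments from 5 of the 7 tiles that were listed in both pairwise comparisons, to show the kind of sequence the digest yields inside these genes. For each tile it is the fragment whose modelled 50-base ends cover the largest number of the tile's CpGs, which need not be a majority of them. Every CpG is in capitals, whether or not an end covers it.
MUC16 fragment, chr19:9071155-9071236, minus strand: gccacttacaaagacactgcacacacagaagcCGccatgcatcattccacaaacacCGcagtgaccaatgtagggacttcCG
MUC4 fragment, chr3:195504869-195504940, minus strand: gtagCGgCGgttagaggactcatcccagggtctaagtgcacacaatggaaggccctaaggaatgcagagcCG
MUC2 fragment, chr11:1081361-1081482, plus strand: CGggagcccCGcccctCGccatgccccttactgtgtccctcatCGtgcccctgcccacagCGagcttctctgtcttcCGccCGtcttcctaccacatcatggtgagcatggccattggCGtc
MUC2 fragment, chr11:1095629-1095845, plus strand: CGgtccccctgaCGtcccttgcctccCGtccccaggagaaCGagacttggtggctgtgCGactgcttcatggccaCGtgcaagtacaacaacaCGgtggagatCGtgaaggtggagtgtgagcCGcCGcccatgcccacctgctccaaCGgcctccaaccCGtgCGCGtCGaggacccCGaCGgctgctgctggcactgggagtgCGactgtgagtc
MUC5B fragment, chr11:1270593-1270804, plus strand: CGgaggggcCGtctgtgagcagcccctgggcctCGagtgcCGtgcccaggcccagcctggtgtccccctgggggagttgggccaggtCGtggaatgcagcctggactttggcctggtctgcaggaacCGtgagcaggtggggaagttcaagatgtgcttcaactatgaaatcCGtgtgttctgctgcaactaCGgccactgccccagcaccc

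The MUC16 and MUC4 fragments carried 3 CpGs each, all covered by the modelled ends. The MUC2 fragment of 122 bp carried 8, of which 7 were covered, and the MUC2 fragment of 217 bp carried 18, of which 8 were covered. The MUC5B fragment carried 8, of which 6 were covered. The fragments of the other 2 tiles, both in MUC2, are not printed and carried 7 and 3 CpGs, of which 4 and 1 were covered. Both ends of the printed MUC16, MUC4 and MUC2 fragments gave bisulfite-converted reads found once among all fragment ends of the genome. The ends of the MUC5B fragment were found 3 and 4 times.

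In ShC-S vs. ShLy75-S, 57 tiles of the mucin windows were listed, in 8 of the 10 genes, all but MUC17 and MUC20. Of the reachable mucin tiles 24.0% were listed, against 12.6% of all reachable tiles of the genome and 11.8% of those in windows of protein-coding genes. A listed tile was present in the windows of 60.3% of protein-coding genes. Those genes had a median of 10 reachable tiles and 1 listed tile, and the mucins a median of 25 reachable tiles and 5 listed tiles. In Ly75-KO-S vs. Ly75-OV-S, 24 tiles were listed, again in 8 genes, all but MUC1 and MUC13. This was 9.01% of the reachable mucin tiles, against 6.67% of the genome's and 6.16% of those near protein-coding genes, and 46.8% of protein-coding genes had a listed tile. In the mix, 21 tiles were listed in 5 genes, MUC4 and the 4 gel-forming mucins. This was again 9.01% of reachable tiles, against 5.2% of the genome's and 4.88% near protein-coding genes, and 38.3% of protein-coding genes had a listed tile.

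The gel-forming mucins held most of the listed tiles. They had 127 reachable tiles, of which 31.5%, 9.45% and 13.4% were listed in ShC-S vs. ShLy75-S, Ly75-KO-S vs. Ly75-OV-S and the mix. The cell-surface mucins had 106 reachable tiles, of which 15.1%, 8.49% and 3.77% were listed. These shares rested in part on single genes. In a check added after the values were seen, the gel-forming class without MUC2 stood at 29.9%, 4.12% and 12.4%, and the cell-surface class without MUC4 at 6.85%, 11% and 0%. MUC2 contributed 11, 8 and 5 of the listed tiles, and without it the 9 other genes stood at 22.2%, 6.40% and 7.88%, the value for Ly75-KO-S vs. Ly75-OV-S then being close to the genome's 6.67%.

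**Figure D1:**
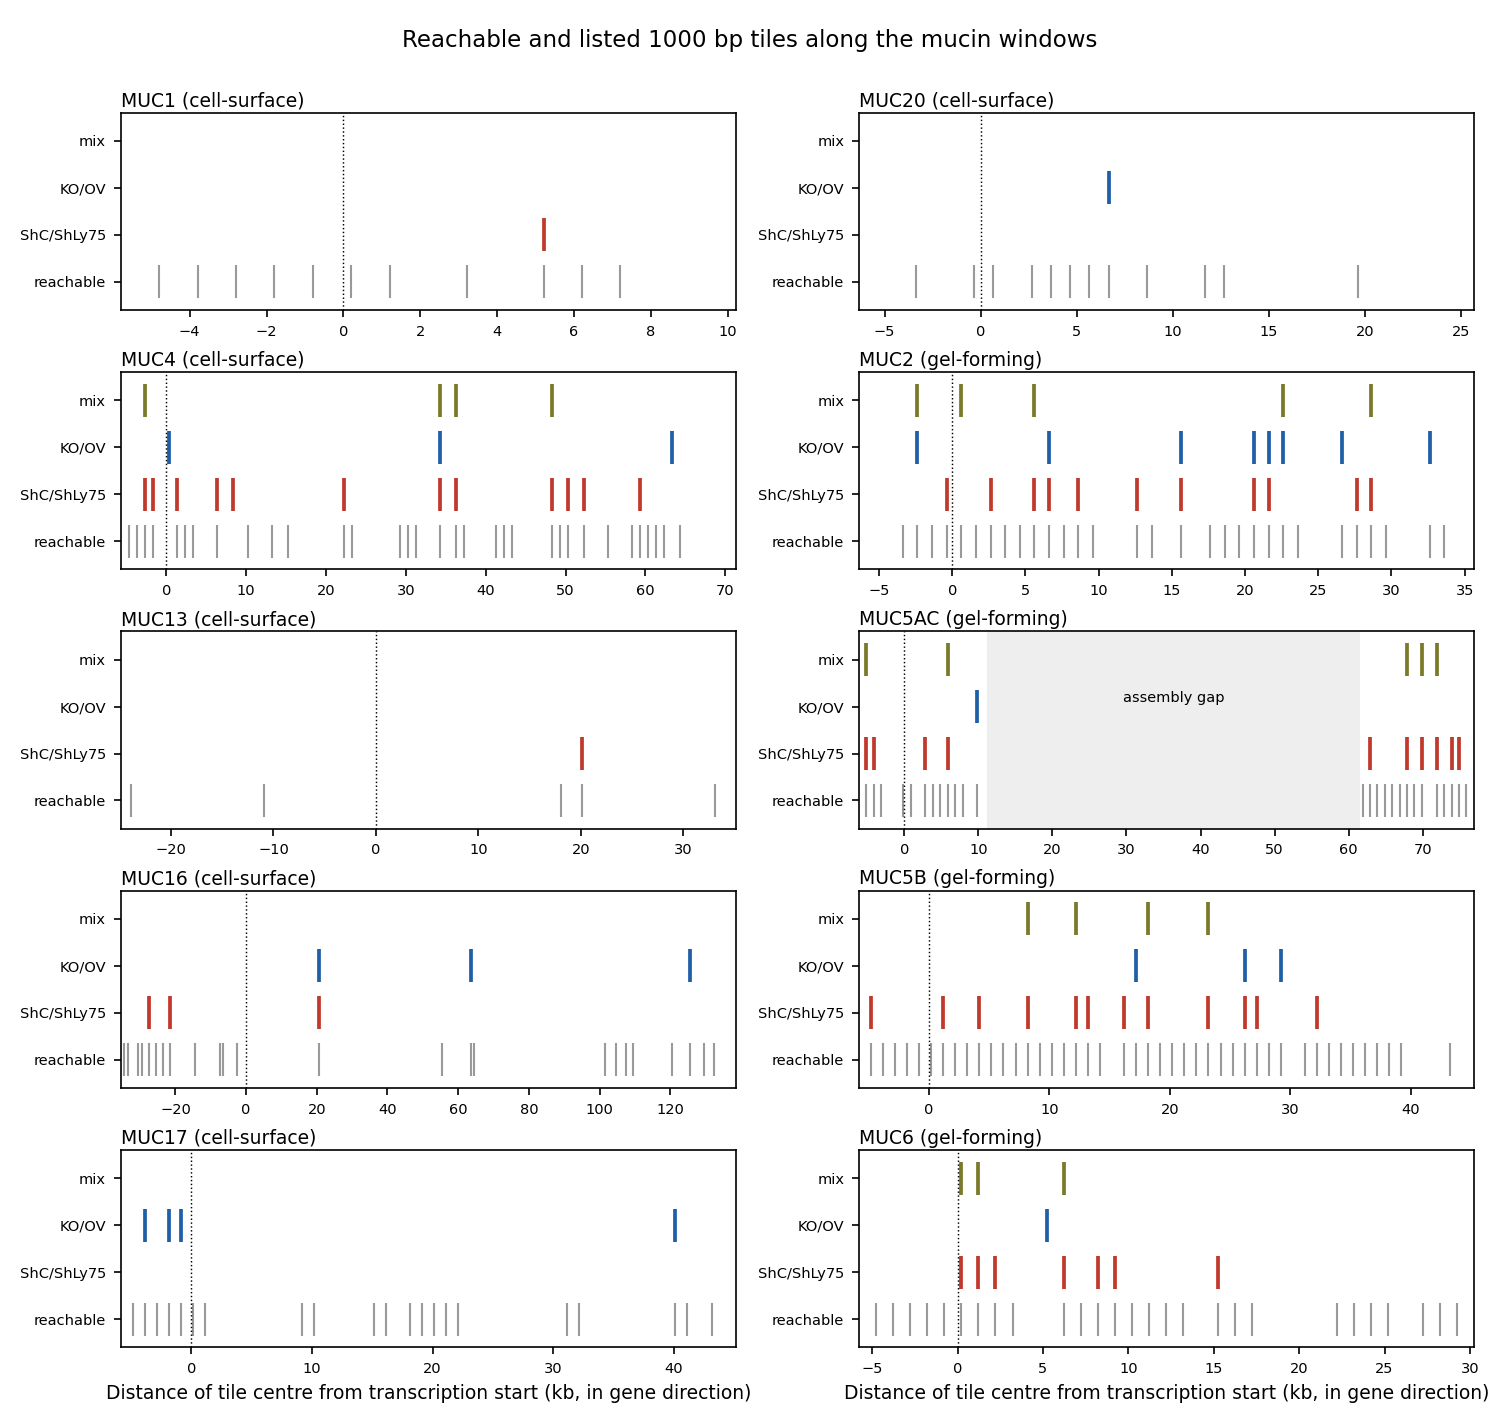
Reachable tiles (grey) and tiles listed in each of the 3 tables (coloured) along the window of each mucin gene, against the distance in kb of the tile centre from the reference transcription start (dotted line). Grey shading marks the assembly gap in MUC5AC; MUC2 and MUC5B carry listed tiles along their length, while MUC1 and MUC13 each carry 1.

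**Figure D2:**
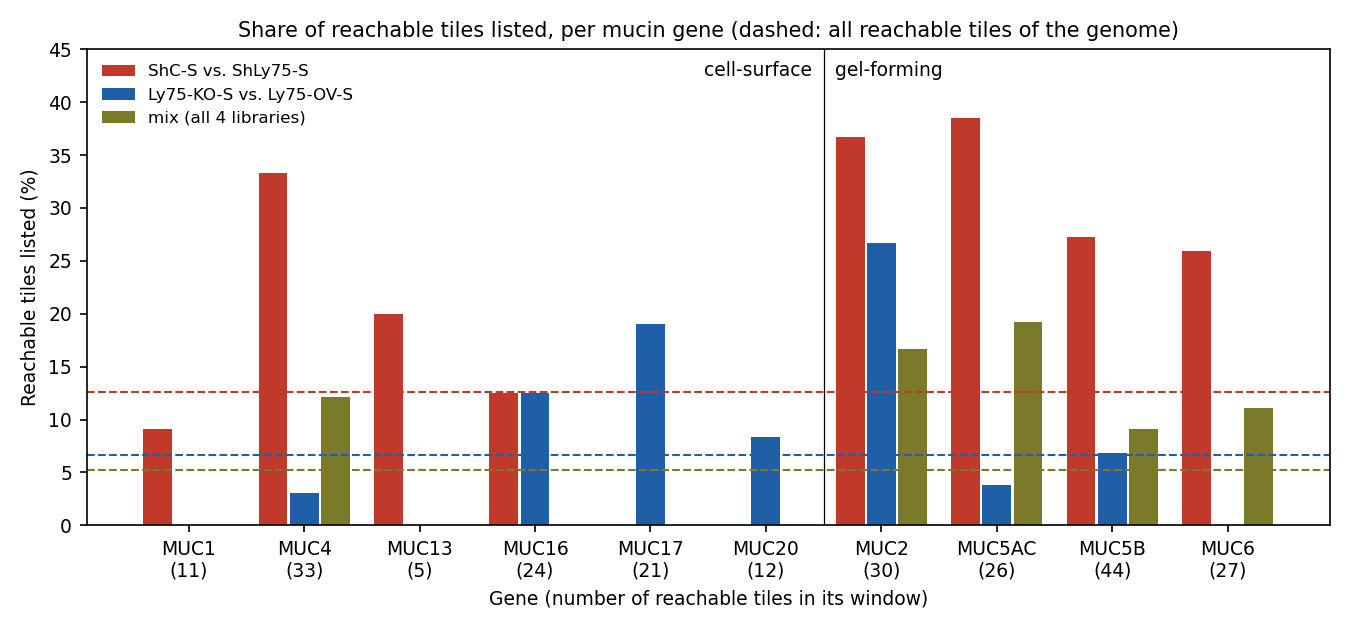
Percent of reachable tiles listed in the window of each gene, with the number of reachable tiles in parentheses and dashed lines at the genome values of 12.6%, 6.67% and 5.2%. In ShC-S vs. ShLy75-S the 4 gel-forming mucins, MUC4 and MUC13 stand above the genome line, while MUC17 and MUC20 are at 0.

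Among the cell-surface mucins, MUC16 (chr19:8959520-9121066, minus strand) encodes the CA125 antigen and has the longest window, of 173 tiles on chromosome 19. Of these 24 were reachable, or 13.9%. In ShC-S vs. ShLy75-S 3 tiles were listed, in Ly75-KO-S vs. Ly75-OV-S 3 were listed, and in the mix 0. This was 12.5% of the reachable MUC16 tiles in each pairwise comparison, next to 12.6% and 6.67% in the genome. The tile chr19:9071001-9072000 was listed in both pairwise comparisons. It lies 20018 to 21017 bp downstream of the reference start, wholly in coding sequence of exon 3 of 84, and holds 8 CpGs, of which 3 were reached. Exon 3 is 21693 bp long and encodes part of the heavily glycosylated extracellular region, and this was the only reachable tile of the 22 that overlap it.

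The other MUC16 tiles differed between the comparisons. Those of ShC-S vs. ShLy75-S were chr19:9113001-9114000 and chr19:9119001-9120000, both upstream of the reference start at 9092018 and inside the longer gene model that starts at 9121066. The latter tile lies 1066 to 2065 bp into that model, in an intron, and holds 17 CpGs. Those of Ly75-KO-S vs. Ly75-OV-S were chr19:9028001-9029000, with exon 11, and chr19:8966001-8967000, with exon 81. The tile with the reference start holds 5 CpGs, of which 0 were reached, and the tile was not listed in any table. Of the 75 listed mucin tiles, 4 also had 0 CpGs reached, so a tile that was not reached in the model may still have been read.

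MUC1 (chr1:155158300-155162707, minus strand), a transmembrane mucin widely expressed on epithelia, had 11 reachable tiles of 15, including 4 of the 5 within 2 kb of a start. The start tile itself holds 20 CpGs, 9 of them reached. No tile within 2 kb of a MUC1 start was listed in any table. The listed tile, chr1:155157001-155158000, was listed in ShC-S vs. ShLy75-S alone, starts 4658 bp downstream of the nearest start, beyond the 3′ end of the gene, and overlaps the neighbouring genes TRIM46 and ENSG00000273088.

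MUC4 (chr3:195473636-195538844, minus strand), a membrane mucin that can bind ERBB2, had 33 reachable tiles of 76 on chromosome 3. It held 12 listed tiles in ShC-S vs. ShLy75-S, 3 in Ly75-KO-S vs. Ly75-OV-S and 4 in the mix. Of the reachable tiles 33.3%, 3.03% and 12.1% were listed. The 3.03% counts 1 of the 3 tiles listed in Ly75-KO-S vs. Ly75-OV-S, since the other 2 were listed but not reachable in the model. Its tile chr3:195504001-195505000 was the 1 tile of the mucin windows listed in all 3 tables. This tile lies in an intron, 33728 to 34727 bp from the nearest start, and holds 6 CpGs, of which 3 were reached. Near its start 3 tiles were listed. Listed in ShC-S vs. ShLy75-S were chr3:195537001-195538000, 728 to 1727 bp downstream with 31 CpGs, and chr3:195540001-195541000, 1201 to 2200 bp upstream with 38 CpGs. The tile chr3:195538001-195539000, which spans the start and holds 30 CpGs, was listed in Ly75-KO-S vs. Ly75-OV-S. The modelled digest did not reach its CpGs. In the 12708 bp exon 2, which encodes the repeat domain, 5 tiles were reachable and 1 was listed, in ShC-S vs. ShLy75-S.

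MUC13 (chr3:124624289-124672663, minus strand), a membrane mucin of the gut, had 5 reachable tiles of 59 and none within 2 kb of its start. Its listed tile, chr3:124633001-124634000, was listed in ShC-S vs. ShLy75-S, lies in an intron and was read by 2 modelled reads, both with copies elsewhere in the genome. MUC20 (chr3:195447755-195467994, plus strand) had 12 reachable tiles of 31 and 1 listed tile, chr3:195454001-195455000, in an intron, in Ly75-KO-S vs. Ly75-OV-S.

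MUC17 (chr7:100663353-100702140, plus strand), a membrane mucin of the intestinal brush border, had 21 reachable tiles of 50, with 0 listed in ShC-S vs. ShLy75-S, 4 in Ly75-KO-S vs. Ly75-OV-S and 0 in the mix. These 4 were 19.0% of its reachable tiles. The adjacent tiles chr7:100661001-100662000 and chr7:100662001-100663000 lie 362 to 2361 bp upstream of the start and hold 11 and 17 CpGs. They and the other listed upstream tile also overlap the annotated span of MUC12, so they cannot be assigned to MUC17 alone. The fourth lies beyond the 3′ end. In the 12219 bp exon 3 of MUC17, 7 tiles were reachable and 0 were listed.

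The gel-forming mucins form a cluster on chromosome 11, in the order MUC6, MUC2, MUC5AC and MUC5B. MUC2 (chr11:1074875-1104416, plus strand), the main mucin of the intestinal mucus, had 30 reachable tiles of 41 and 11, 8 and 5 listed tiles. These were 36.7%, 26.7% and 16.7% of its reachable tiles, and 26.7% was the highest share of any of the 10 genes in Ly75-KO-S vs. Ly75-OV-S. Near the start, chr11:1074001-1075000, which spans it and holds 25 CpGs, was listed in ShC-S vs. ShLy75-S. The tile chr11:1072001-1073000, 1875 to 2874 bp upstream with 33 CpGs, was listed in Ly75-KO-S vs. Ly75-OV-S and in the mix. The tile chr11:1075001-1076000, with exon 2 and 44 CpGs, was listed in the mix alone. No tile near the MUC2 start was therefore listed in both pairwise comparisons.

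Further into MUC2, 4 tiles were listed in both pairwise comparisons. The first, chr11:1081001-1082000, carries exons 11 to 13 and 42 CpGs, of which 25 were reached. The second, chr11:1090001-1091000, carries exons 27 to 28 and 28 CpGs. The adjacent tiles chr11:1095001-1096000 and chr11:1096001-1097000 hold 62 and 34 CpGs. They lie past the last exon of the basic transcript used here, which has 30 exons, and in exons of other annotated MUC2 transcripts. In Ly75-KO-S vs. Ly75-OV-S the listed stretch ran on for 3 adjacent tiles, to chr11:1097001-1098000. All modelled reads in these tiles were found once in the genome.

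MUC5AC (chr11:1151580-1222364, plus strand), a major mucin of airway and stomach, is interrupted on GRCh37 by 50000 unknown bases, which take 51 of its 82 tiles. Of its 26 reachable tiles 10 were listed in ShC-S vs. ShLy75-S, 1 in Ly75-KO-S vs. Ly75-OV-S and 5 in the mix. The share of 38.5% in ShC-S vs. ShLy75-S was the highest of the 10 genes, and the 3.85% in Ly75-KO-S vs. Ly75-OV-S lay under the genome value. No tile within 2 kb of the 5′ start at 1151627 was listed. The tile chr11:1214001-1215000, with 37 CpGs, counted as near a start because a transcript model begins at 1212760, directly after the gap.

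MUC5B (chr11:1244296-1283402, plus strand), a mucin of the airways and cervix, had the densest cover, with 44 reachable tiles of 50. It held 12, 3 and 4 listed tiles, or 27.3%, 6.82% and 9.09% of the reachable ones. Near its start chr11:1245001-1246000, 705 to 1704 bp downstream with 24 CpGs, was listed in ShC-S vs. ShLy75-S. The repeat domain lies in exon 31, which is 10893 bp long. All 11 of its tiles were reachable, and 4, 1 and 2 were listed. The tile chr11:1270001-1271000, with 43 CpGs in coding sequence of this exon, was listed in both pairwise comparisons. Of its 11 modelled reads 4 were found once in the genome. Over the whole of exon 31 this held for 46.1% of 89 modelled reads, next to 75.3% of all modelled reads of the genome, 94.6% of those in the MUC2 window and 99.0% in MUC5AC. The part of such copies in these calls was not tested.

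MUC6 (chr11:1012823-1036718, minus strand), a mucin of the stomach, had 27 reachable tiles of 35 and 7, 1 and 3 listed tiles. At its start 3 adjacent tiles were listed in ShC-S vs. ShLy75-S, from chr11:1034001-1035000 through chr11:1035001-1036000 to chr11:1036001-1037000. They hold 31, 44 and 61 CpGs, and the last spans the start. The latter 2 were also listed in the mix, and none of the 3 in Ly75-KO-S vs. Ly75-OV-S. The 1 MUC6 tile listed there, chr11:1031001-1032000, carries exons 3 to 6 and was not reachable in the model. The repeat exon of MUC6, exon 31 with 3009 bp, had 0 reachable tiles in the model and 0 listed tiles.

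Near transcription starts, 9 tiles in 6 genes were listed in ShC-S vs. ShLy75-S, in MUC16, MUC2, MUC4, MUC5AC, MUC5B and MUC6. Among protein-coding genes 30.2% had such a tile. In Ly75-KO-S vs. Ly75-OV-S there were 4 tiles in 3 genes, MUC17, MUC2 and MUC4, against 14.2% of protein-coding genes. In the mix there were 4 tiles in 2 genes, MUC2 and MUC6, against 15.2%. MUC2 and MUC4 had a listed tile near a start in both pairwise comparisons, but in neither gene was it the same tile. This was so for 8.47% of protein-coding genes, counting any tile near a start in each. Within 2 kb of a start 22.5%, 7.50% and 10.0% of the 40 reachable mucin tiles were listed, against 14.6%, 5.21% and 6.22% for protein-coding genes. The classes differed. The 19 such tiles of the gel-forming genes stood at 31.6%, 5.26% and 21.1%, and the 21 of the cell-surface genes at 14.3%, 9.52% and 0%.

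With both classes pooled, the higher share than in protein-coding genes in ShC-S vs. ShLy75-S was also seen away from starts. Of 116 reachable mucin tiles with an exon 25.9% were listed, next to 11.8% for protein-coding genes. Of 35 in the span but outside exons of basic transcripts 25.7% were listed, next to 10.3%, and of 42 in the flanks 19.0%, next to 12.3%. In the same order the gel-forming genes stood at 31.6%, 40% and 27.3%. The cell-surface genes stood at 15%, 20% and 10%, so their flanks lay below the value for protein-coding genes. The exon tiles of Ly75-KO-S vs. Ly75-OV-S stood at 7.76%, next to 7.19%, and the flanks at 7.14%, next to 6.31%. The tiles outside exons of basic transcripts stood at 17.1%, next to 5.97%. Of those 6 listed tiles 4 were the MUC2 tiles past its basic transcript, and these lie in exons of other annotated MUC2 transcripts. Of the 75 listed tiles 39 held coding bases of the reference transcript. The same share over all reachable tiles was not counted, so 39 cannot be called many or few. Tiles in exons of other transcripts alone, such as some in MUC2 and MUC5AC, are not among the 39.

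In all, 7 tiles were listed in both pairwise comparisons, 4 in MUC2 and 1 each in MUC4, MUC16 and MUC5B. They were 12.3% of the mucin tiles listed in ShC-S vs. ShLy75-S and 29.2% of those in Ly75-KO-S vs. Ly75-OV-S. Over the genome 8345 tiles were listed in both, 16.3% and 29.5% of the 2 lists. The mucin shares depended on MUC2. Without it 3 tiles were listed in both, or 6.52% and 18.8% of the lists of the 9 other genes, below the shares of the genome. None of the 7 lay within 2 kb of a basic transcription start, but only 40 of the 233 reachable mucin tiles did. The share near a start among the genome's tiles listed in both was not counted.

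With both mucin classes pooled, the density of CpGs went with listing in ShC-S vs. ShLy75-S. Of the 51 reachable mucin tiles with 1 to 19 CpGs 13.7% were listed, of the 124 with 20 to 39 CpGs 22.6%, and of the 58 with 40 or more 36.2%. The genome values were 11.6%, 12.4% and 17.3%, so the pooled mucin tiles lay above the genome most where CpGs were dense. The bins differ in gene class, however. The tiles listed in ShC-S vs. ShLy75-S held 22 to 62 CpGs in the gel-forming genes and 6 to 48 in the cell-surface genes. Density and class were therefore not separated in these bins. In Ly75-KO-S vs. Ly75-OV-S the order was the opposite, with 15.7%, 8.06% and 5.17% of the mucin tiles and 7.38%, 6.51% and 4.15% of the genome's. Among reachable tiles of the gel-forming genes alone, the median was 39 CpGs in tiles listed in ShC-S vs. ShLy75-S and 37 in the others. It was 34.5 next to 37 in Ly75-KO-S vs. Ly75-OV-S, and 42 next to 37 in the mix. In the cell-surface genes the medians were 21 and 21 in ShC-S vs. ShLy75-S, 15 and 22 in Ly75-KO-S vs. Ly75-OV-S, and 18.5 and 21 in the mix.

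**Figure D3:**
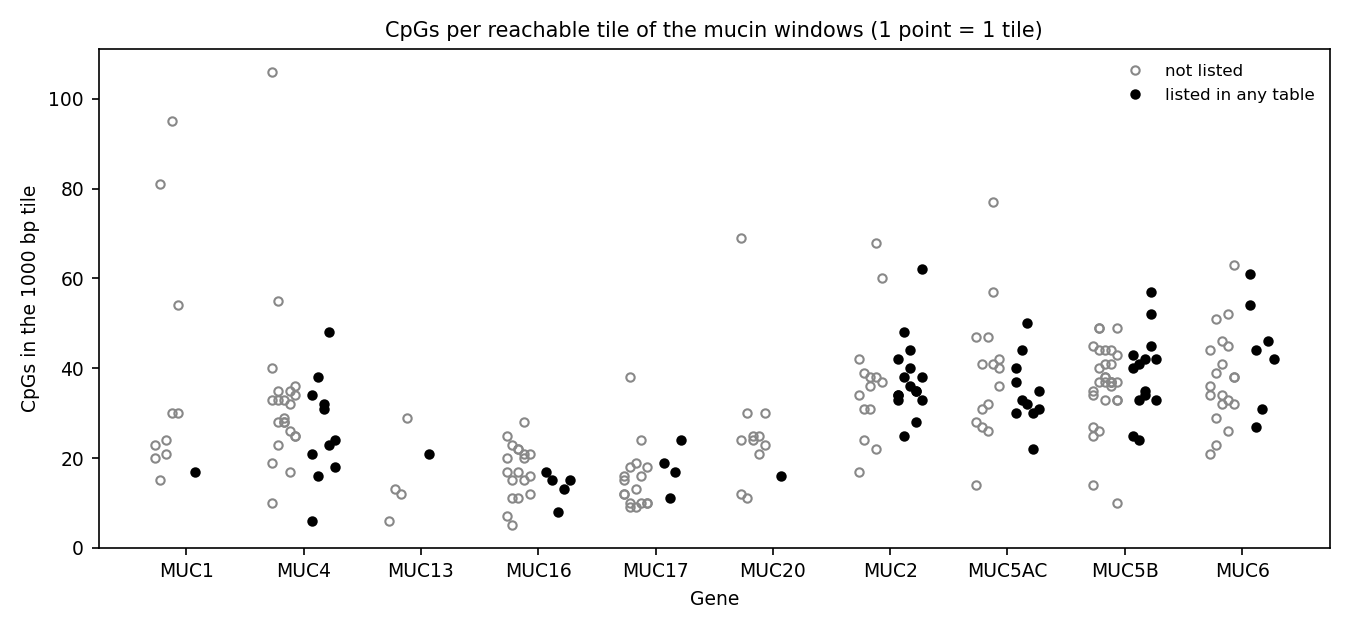
Number of CpGs in each reachable 1000 bp tile of the mucin windows, for tiles listed in at least 1 table (filled) and in no table (open), where 1 point is 1 tile. Tiles of the gel-forming genes mostly hold more CpGs than those of MUC13, MUC16 and MUC17, and listed and other tiles overlap within each gene.

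Each locus was also set beside its surroundings, that is the reachable tiles within 1 Mb of the span outside all mucin windows. Around the chromosome 11 cluster 17.3% of 1127 tiles were listed in ShC-S vs. ShLy75-S, above the genome's 12.6% and below the 31.5% of the cluster itself. In Ly75-KO-S vs. Ly75-OV-S the surroundings stood at 7.63% and the cluster at 9.45%, which fell to 4.12% without MUC2, below the surroundings. In the mix they stood at 8.34% and 13.4%. Around MUC4 11.1% were listed in ShC-S vs. ShLy75-S, compared with 33.3% in MUC4, and in Ly75-KO-S vs. Ly75-OV-S 5.28%, compared with 3.03%. MUC16 and MUC1 were close to their surroundings in ShC-S vs. ShLy75-S, with 12.5% next to 12.7% and 9.09% next to 9.34%. Around MUC17 5.01% were listed in Ly75-KO-S vs. Ly75-OV-S, compared with 19.0% of its own 21 reachable tiles, and in ShC-S vs. ShLy75-S 10.6%, compared with 0%. In Ly75-KO-S vs. Ly75-OV-S MUC16 stood at 12.5% next to 8%, and MUC1 at 0% next to 4.91%.

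**Figure D4:**
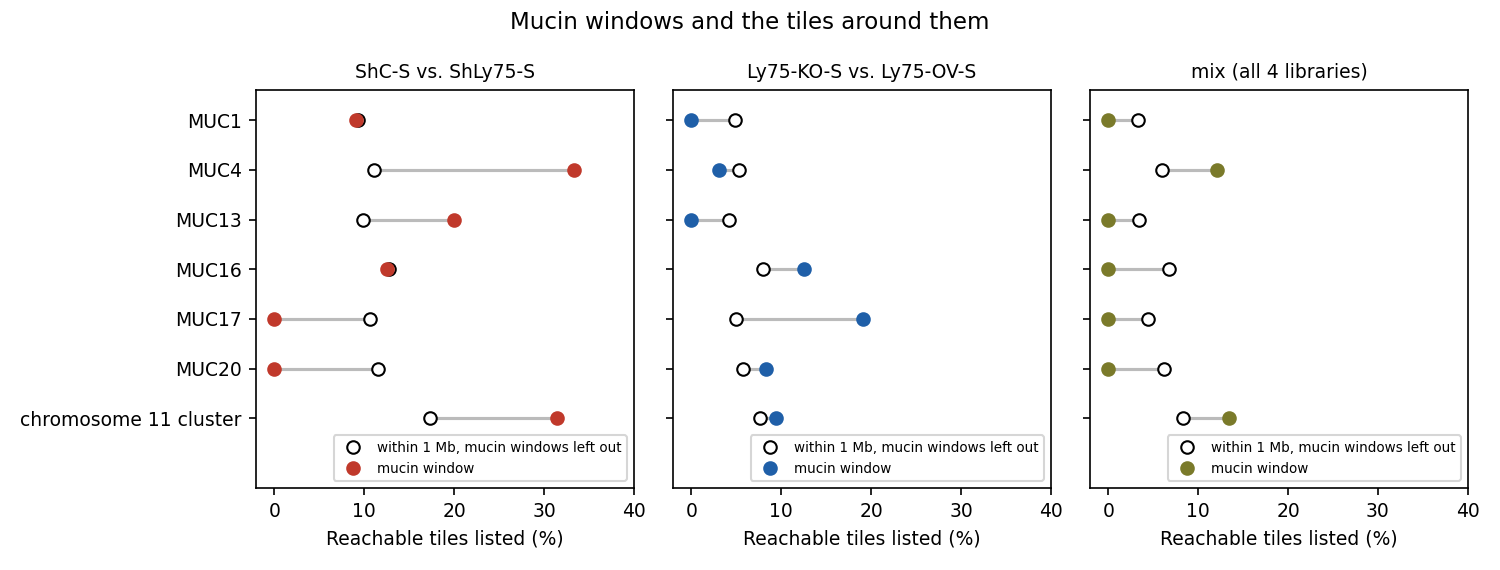
Percent of reachable tiles listed in each mucin window (filled) and within 1 Mb of it outside mucin windows (open), in the 3 tables. The chromosome 11 cluster (MUC6, MUC2, MUC5AC and MUC5B) and MUC4 lie to the right of their surroundings in ShC-S vs. ShLy75-S, at 31.5% and 33.3%.

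Genes that act with the mucins were counted in 3 lists. Of 12 other mucins and mucin-like proteins 6, 7 and 3 had a listed tile in ShC-S vs. ShLy75-S, Ly75-KO-S vs. Ly75-OV-S and the mix, next to 60.3%, 46.8% and 38.3% of protein-coding genes. The 7 include MUC12, whose 3 listed tiles are the upstream MUC17 tiles counted above. The list's median was 4.5 reachable tiles, with 0.5, 1 and 0 listed. MCAM, an adhesion molecule also called MUC18, and OVGP1, a secreted mucin-like protein of the oviduct, had a listed tile near a start in both pairwise comparisons, 2 of 12 genes, next to 8.47% of protein-coding genes. In MCAM chr11:119186001-119187000 was listed in both, and in OVGP1 chr1:111968001-111969000 was listed in all 3 tables.

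Of 25 enzymes and chaperones that build mucin-type O-linked sugars, 22, 13 and 14 had a listed tile. These were 88%, 52% and 56% of the list, next to 60.3%, 46.8% and 38.3% of protein-coding genes, with medians of 12 reachable tiles and 2, 1 and 1 listed tiles. C1GALT1C1, the chaperone needed to make the core 1 sugar, had the adjacent tiles chrX:119763001-119764000 and chrX:119764001-119765000 at its start listed in all 3 tables. GALNT14, GALNT18 and GALNT9, which belong to the family that adds the first sugar, also had a tile near a start in both pairwise comparisons. With C1GALT1C1 these were 4 of the 25 genes, next to 8.47% of protein-coding genes. The GALNT14 tile chr2:31360001-31361000, with 84 CpGs, and the GALNT9 tile chr12:132688001-132689000, with 55 CpGs, were listed in all 3 tables. The GALNT18 tile chr11:11644001-11645000, with 13 CpGs, was listed in both pairwise comparisons. GALNT9 has 91 reachable tiles, and 32 of its tiles were listed in ShC-S vs. ShLy75-S.

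Of 16 partners, packaging factors and regulators, 13, 12 and 11 had a listed tile. These were 81.2%, 75% and 68.8% of the list, next to 60.3%, 46.8% and 38.3% of protein-coding genes, with medians of 9 reachable tiles and 3, 1.5 and 1 listed tiles. FOXA2, a transcription factor of mucous and glandular epithelia, had 4 adjacent tiles near its starts listed in ShC-S vs. ShLy75-S. The tile chr20:22566001-22567000, with 43 CpGs, was listed in all 3 tables. TFF1, a secreted trefoil peptide that accompanies gel-forming mucins, had different tiles near its start listed in the pairwise comparisons, chr21:43786001-43787000 in the first and chr21:43784001-43785000 in the second. FOXA2 and TFF1 were 2 of the 16 genes, next to 8.47% of protein-coding genes with a tile near a start in both.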

How the data were processed

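Genomic DNA of 4 SKOV3 clones was measured by RRBS with 50-base single reads, 1 library per clone. Per the labels, the authors digested DNA with MspI, aligned the converted reads to hg19 (Bismark 0.16.1, Trim Galore 0.4.1) and compared clones with methylKit, in 1000 bp tiles. Each deposited table gives tile positions (chromosome, start, end) and, for each tile, a methylation difference, a p-value and a q-value from the authors' comparison. Those differences and values were not used here, except to test that every tile passed the stated filter of 25 percentage points and q under 0.01, and 0 tiles did not. The study's methods name another significance threshold for regions. Because a tile's direction comes from those columns, no gain or loss of methylation is given.

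Listed tiles were placed on GENCODE 44 lifted to GRCh37 (basic transcripts). The build was checked: 24 chromosomes matched, and 0 listed tiles lacked a reference CpG. Near a start means within 2 kb of a basic transcription start. Where no transcript was marked as the reference, the basic one with the most 5′ start was used. The digest gave 647625 fragments of 40 to 220 bp, and the code was tested on simulated sequence. The fragment limits and the use of both ends are assumptions, since the authors' size range is not given in the sources used here. A fragment end counted as found once where its converted read matched no other end.

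Sequences were read from GRCh37. All 10 genes are named. Tiles near a start, in both pairwise comparisons or in all 3 tables are given in full, and the rest by counts. Of the other lists, genes with a tile near a start in both pairwise comparisons are named, up to 5 per list. The members, lists and rules were chosen with earlier results of these data known, and the surroundings of 1 Mb were added after the values were seen. Python 3.11.15, numpy 2.4.6, pandas 2.3.3 and matplotlib 3.10.9 were used. Alternatives varied the window, the overlap, the fragment limits, the read copies and the distance to a start.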

Additional observations from a re-analysis of the deposited data

How the results depend on the processing

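Of 68 alternative values, 58 stayed within 1.5 times the value reported and 10 moved further. Counting every tile with a CpG as reachable lowered the share of mucin tiles listed to 10.3% in ShC-S vs. ShLy75-S, 4.32% in Ly75-KO-S vs. Ly75-OV-S and 3.78% in the mix, since the denominator grew. The genome's share with that denominator is not given, so these values cannot be set beside the genome values for reachable tiles. The count of listed tiles near a start depended on the distance. In ShC-S vs. ShLy75-S it was 5 within 1 kb, 17 within 5 kb and 17 with the starts of all transcripts, and in Ly75-KO-S vs. Ly75-OV-S 2, 7 and 9. Without the MUC5AC start at the assembly gap, an alternative chosen after seeing the data, the first count was 8. Counting adjacent tiles as shared raised the tiles common to both pairwise comparisons to 14. No paired analysis was possible because each clone has 1 library and the labels carry no replicate numbers. With 1 library per clone no replicate could be left out, and coverage minimum and tile size could not be varied, since the tables hold called tiles without coverage.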
